A study of Mus musculus with 8 samples.

Results

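The genes described here are 41 fibroblast markers and non-collagen matrix genes, taken by symbol from the 53465 genes of the deposited table. The choice of names used no cut on measured values, but it was made with earlier results of these data known. The list holds 6 markers of the fibroblast cell, 7 small leucine-rich proteoglycans, 11 genes of elastic fibres and microfibrils, 10 adhesive and matricellular glycoproteins, and 7 genes of the basement membrane. All 41 had a mean of at least 3 in the deposited unit, regularised log2 (rlog), and were tested with 16380 genes in all.

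Colon RNA was sequenced from 8 mice of the B6 background, aged 7 to 12 weeks and matched for age and sex. The wild-type group held 4 mice labelled Arg1 wt, which are littermates that express Arg1, and the other group 4 mice labelled Arg1 ko, in which Arg1 was deleted conditionally, in a cell-specific way. All 8 mice, controls included, had received 2.5% dextran sulfate sodium (DSS), which damages the epithelial lining of the colon, in drinking water for a week and then plain water until day 10. The genotypes had been housed apart for 2 to 3 weeks before the start. Neither the Cre driver nor the cell type of the deletion is given in the sources used here. The sample numbers in the labels form a separate run for each genotype, and any batch they mark cannot be told apart from genotype.

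Fibroblasts are the main makers of the interstitial matrix below the colon epithelium. Collagen fibres give that matrix its strength, while the proteins described here space the fibres, form elastic fibres, attach cells, or build the basement membrane on which epithelium, muscle and vessels rest. After DSS injury fibroblasts deposit and remodel this matrix during repair, and arginase 1 makes ornithine, from which proline for collagen can be formed.

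None of the 41 genes passed the test between Arg1 ko and wild type over all genes (limma, adjusted p under 0.05), and neither did any other gene (0 of 16380, 0%). At an unadjusted p under 0.05 there were 4 of the 41, against 9.1% of all tested genes. Postn, Sparc and Fbn1 made up the higher side (4.73% of all tested genes) and Mgp the lower side (4.37%). In 3 of the 41, Bgn, Postn and Sparc, the groups did not overlap, against 4.03% of all tested genes. All 3 were higher in Arg1 ko, against 2.36% of all tested genes, and none lay below wild type, against 1.67%. Without a threshold, 35 of the 41 were higher in Arg1 ko, against 51.2% of all tested genes, with a median difference of 0.14 on the rlog scale against 0.0064 over all tested genes. The differences ranged from -0.50 for Mgp to 0.45 for Fbn1.

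The sequences before the start sites of Bgn, Postn and Sparc are shown because these were the genes whose groups did not overlap. They were chosen after their values were seen. Each is the 250 bases before the RefSeq start on the gene's own strand (GRCm38.p6), at chrX:73483351-73483600 for Bgn, chr3:54360857-54361106 for Postn and chr11:55420081-55420330 (minus strand) for Sparc. Of the 2 Postn starts in the RefSeq table, the one next to the annotated gene start is shown. The Sparc window lies inside the annotated gene (55394500 to 55423183), so the RefSeq start used there is not the annotated gene start. Capitals mark a match, on either strand, to any of 4 motifs: TATAAA (the TATA box), GGGCGG (the GC box bound by Sp1), TGANTCA (the AP-1 site) and CAGACA (bound by Smad proteins). Overlapping matches run together.
Bgn: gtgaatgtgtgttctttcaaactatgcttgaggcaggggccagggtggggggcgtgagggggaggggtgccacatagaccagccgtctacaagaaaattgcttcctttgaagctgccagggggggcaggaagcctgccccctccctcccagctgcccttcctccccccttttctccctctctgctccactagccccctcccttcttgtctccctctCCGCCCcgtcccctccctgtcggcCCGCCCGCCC
Postn: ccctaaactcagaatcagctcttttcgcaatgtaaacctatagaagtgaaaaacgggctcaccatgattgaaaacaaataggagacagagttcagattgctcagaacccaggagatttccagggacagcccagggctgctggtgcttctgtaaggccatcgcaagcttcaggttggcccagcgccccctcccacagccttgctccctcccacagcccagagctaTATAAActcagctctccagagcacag
Sparc: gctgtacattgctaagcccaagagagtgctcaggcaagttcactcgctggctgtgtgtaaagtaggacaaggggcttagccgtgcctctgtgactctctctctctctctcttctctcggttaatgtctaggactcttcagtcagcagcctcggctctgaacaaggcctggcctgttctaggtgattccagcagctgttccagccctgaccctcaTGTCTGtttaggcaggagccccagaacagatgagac
The windows differed in these letters. Postn held a TATA box 26 bases before the start, Bgn held 3 GC boxes at 34, 10 and 6 bases before it, and Sparc held the Smad motif on the opposite strand 36 bases before it. TATAAA occurred in 12.4%, GGGCGG in 32.7%, CAGACA in 17.1% and TGANTCA in 6.75% of the 32851 windows of the same length before RefSeq starts. No motif was shared by all 3 windows. RefSeq gave 33 windows for 26 of the 41 genes, and among those TATAAA occurred in 7, GGGCGG in 16, CAGACA in 8 and TGANTCA in 1.

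The deleted gene and the cell types were checked first. Arg1 rlog values were 5.59, 5.57, 5.02 and 5.58 in wild type 1 to 4, and 5.06, 4.87, 5.15 and 5.19 in Arg1 ko 1 to 4. The wild-type value of 5.02, in the library labelled wild type 3, fell within the ko range. A mixed-up label and low Arg1 in a wild-type mouse cannot be told apart from these values, and neither was tested. The difference was -0.37 (SE 0.15, limma adjusted p = 0.522), or -0.51 with the library labelled wild type 3 left out (limma adjusted p = 0.0418). Leaving out the wild-type library nearest to the ko values enlarges the Arg1 difference by construction, and that fit called 6.14% of all genes. Of 9 fibroblast markers none was at 0, and the log2 of their summed values ran from 14.48 to 14.73 over wild type and from 14.74 to 14.85 over Arg1 ko, a sum that includes Col1a1 and Col3a1. The protocol describes the purification of epithelial aggregates, and the samples are labelled as colon. The 8 smooth muscle markers were also present, with summed levels of 16.53 to 17.04 in wild type and 16.71 to 16.90 in Arg1 ko. The 10 epithelial markers summed to 18.79 to 19.05 and 18.79 to 18.91, so markers of muscle and stroma were measured beside epithelial ones. No marker of pericytes (14.03 to 14.55 in wild type, 13.91 to 14.11 in Arg1 ko), endothelium (11.93 to 12.57 and 12.14 to 12.29), leukocytes (13.18 to 13.54 and 13.32 to 13.50), enteric glia (12.93 to 14.06 and 13.22 to 13.40), mesothelium (12.41 to 12.81 and 12.36 to 12.54) or red blood cells (12.60 to 14.74 and 12.58 to 13.33) was at 0. Most of the sum came from a single gene for pericytes (Rgs5, mean rlog 13.82), enteric glia (Erbb3, 13.23) and mesothelium (Krt7, 12.43). The same held for leukocytes (Lyz2, 12.89) and red blood cells (Hbb-bs, 12.68). Those sums are therefore not read as levels of the cell types. The part that these cell types play in the results was not tested. In such bulk RNA, fewer cells of a type and less RNA per cell cannot be told apart.

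The libraries also differed in how they represented long and short genes, and this bears on matrix genes because many of them are long. Exonic length was 5.66 kb at the median of the 41 genes and 4.12 kb over all tested genes. Over the 1428 tested genes longer than 10 kb, the median deviation from the gene's mean was -0.40, -0.23, 0.18 and 0.12 in wild type 1 to 4, with 0.013 to 0.14 in the ko libraries. Over the 1824 genes of up to 1.5 kb the order turned, with 0.36, 0.18, -0.15 and -0.085 in the wild-type libraries and -0.15 to -0.028 in the ko libraries. The share of tested genes higher in Arg1 ko went from 25.5% of those up to 1.5 kb to 82.1% of those longer than 10 kb.

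The longer of the 41 genes followed the same division, but the shorter ones did so only in part. Among the 20 longer than their median length, wild type 1 was the lowest of all 8 libraries in 13, and it lay below every ko library in 16. Among the 21 others it lay below every ko library in 9 and above every ko library in 9. The median deviation of the longer genes was -0.42, -0.27, 0.20 and 0.19 in wild type 1 to 4, and 0.045 to 0.17 in the ko libraries. For the shorter genes the wild-type medians were 0.066, -0.088, -0.028 and -0.11, and the ko medians 0.0047 to 0.10. Of the longer genes 19 of 20 were higher in Arg1 ko (median difference 0.17), and of the others 16 of 21 (0.10). Of all tested genes, 33.9% were higher among those over 1.5 to 3 kb and 52.6% among those over 3 to 6 kb.

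**Figure D1:**
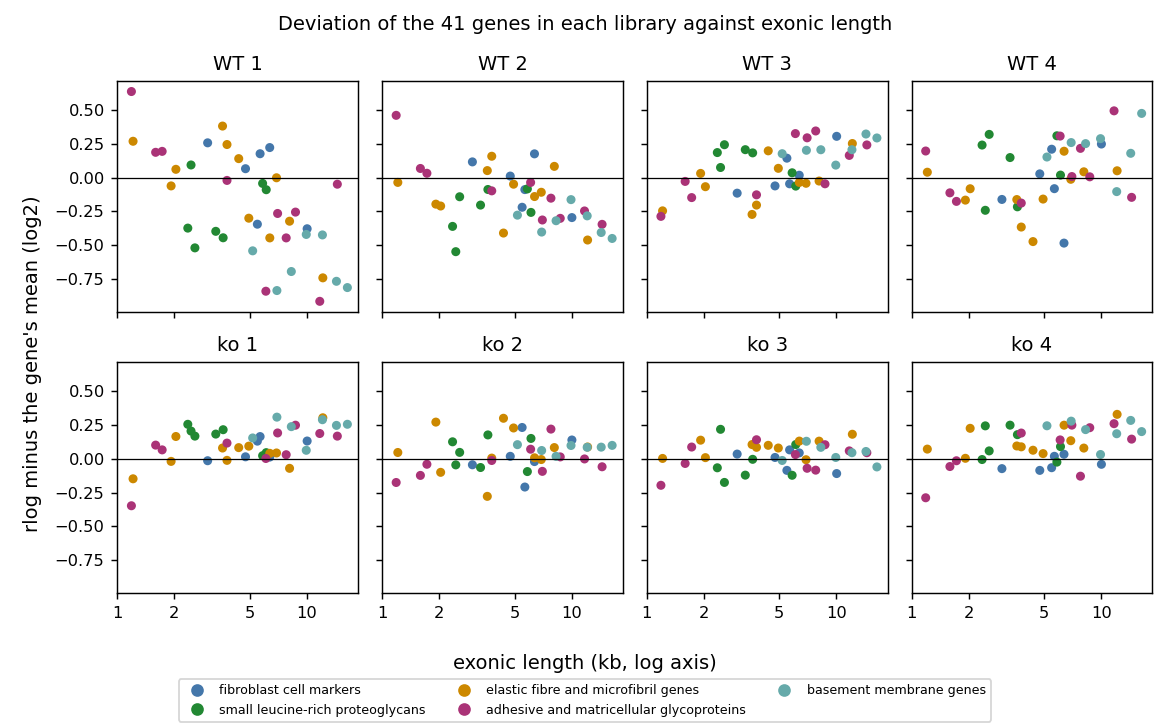
Deviation of each of the 41 genes from its own mean (rlog, y axis) against its exonic length in kb (log x axis), in each of the 8 libraries, coloured by role class. In wild type 1 the longer genes lie low and many of the shorter ones high, with medians of -0.42 and 0.066, and in wild type 2 the longer genes are low too (median -0.27).

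The differences of the 41 genes, their classes and the collagen chains were therefore also computed after a correction for exonic length and without wild type 1 and 2, both chosen after seeing the data. With the correction, which also removes any true difference that follows length, 31 of 41 were higher in Arg1 ko against 50.3% of all genes, and the median difference was 0.12. The longer genes then had a median of 0.073 and the others 0.15. Without wild type 1 and 2, 24 of 41 were higher against 49.7% of all genes, the median was 0.041, and the median of the longer genes was -0.060. Neither fit called a gene at an adjusted p under 0.05 (limma). An unadjusted p under 0.05 was reached by 7 of 41 with the correction, against 10.1% of all genes. Of these 6 were higher (5.14% of all genes) and 1 lower (4.91%), and in 3 of the 41 the groups did not overlap (4.74%). These were Dpt and Sparc on the higher side and Dcn (-0.16) on the lower side, while the groups of Bgn and Postn overlapped. Without wild type 1 and 2, 7 of 41 had such a p, against 13.1% of all genes, 3 of them higher (6.28%) and 4 lower (6.79%). In 12 of the 41 the groups did not overlap (22.7%). Bgn, Postn, Sparc, Dpt, Thy1, Fbln5 and Efemp2 were higher, and Dcn (-0.23), Thbs1, Pdgfra, Lama2 and Ogn lower. The groups of Bgn, Postn and Sparc were apart over all libraries, so leaving libraries out cannot make them overlap. Without the library labelled wild type 3, 34 of 41 were higher (51.5% of all genes), with 14 at such a p (28.1%), 13 higher (13.9%) and 1 lower (14.2%), and 9 had groups that did not overlap (25.6%).

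**Figure D2:**
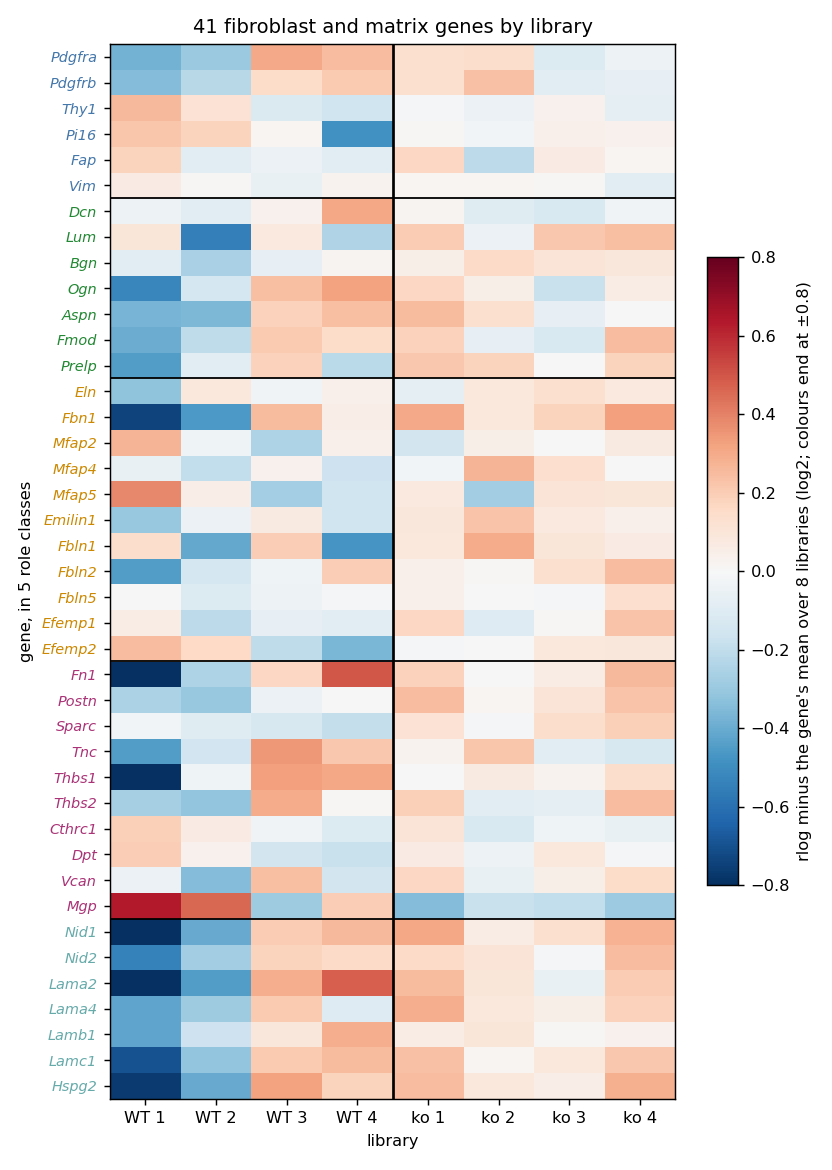
Heat map of rlog minus the gene's mean over the 8 libraries for the 41 genes (rows, in the order fibroblast markers, leucine-rich proteoglycans, elastic fibre genes, adhesive and matricellular genes, basement membrane genes) in 4 wild-type (WT) and 4 Arg1 ko (ko) libraries. Wild type 1 has the strongest colours, with low basement membrane genes and high Mgp, and the ko columns are paler.

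Spread differed between the groups. The median SD over the 41 genes was 0.28 for wild type, against 0.11 for Arg1 ko, and 36 of 41 had the larger SD in wild type. The same held for 90.9% of all tested genes, with median SDs of 0.26 and 0.096, so the wider wild-type spread was common to the tested genes. The widest wild-type ranges were those of Fn1 (1.41), Lama2 (1.29) and Thbs1 (1.17), where the ko ranges were 0.26, 0.32 and 0.14.

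Levels between genes were compared as the mean rlog minus log2 of the exonic length in kb, a level per length. Dpt (10.84), Mgp (10.83), Dcn (10.64), Sparc (10.38) and Vim (9.85) had the highest levels per length. Cthrc1 (3.05), which marks activated matrix-making fibroblasts, and Fmod (3.23), a collagen-binding proteoglycan, had the lowest, and rlog draws differences of such low genes toward 0. The surface marker Pdgfra (7.94) stood above Pdgfrb (6.80), the receptor typical of pericytes and deeper fibroblasts.

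The markers of the fibroblast cell itself showed no common direction. Of 6 markers 4 were higher in Arg1 ko and 2 lower, with a median of 0.027 and none at an unadjusted p under 0.05. Vim, the intermediate filament of mesenchymal cells, had 12.17, 12.11, 12.04 and 12.13 in wild type and 12.12, 12.12, 12.11 and 12.01 in Arg1 ko. Its groups overlapped almost fully, and the difference was -0.022 with a standard error (SE) of 0.081. Pdgfra, a receptor for platelet-derived growth factor, had 10.88, 10.97, 11.57 and 11.51 in wild type and 11.39, 11.40, 11.15 and 11.22 in Arg1 ko. Here the ko values fell in the gap between a low and a high pair of wild-type libraries, and the difference was 0.060 (SE 0.16). The pair of high wild-type values was wild type 4 and the library labelled wild type 3. Pdgfrb showed the same low pair, with 8.91, 9.03, 9.40 and 9.46 against 9.38, 9.48, 9.17 and 9.19, a difference of 0.10 (SE 0.15). Thy1, a glycoprotein anchored on the fibroblast surface, ran the other way within wild type, with 9.55, 9.41, 9.18 and 9.13 against 9.28, 9.25, 9.33 and 9.22, a difference of -0.049 (SE 0.11). Thy1 is 3.00 kb long and Pdgfra 10.02 kb.

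Pi16 and Fap had small differences over all 8 libraries. Pi16, which marks adventitial fibroblasts, differed by 0.034, with ko values of 7.00 to 7.06 and a wild-type range of 6.53 to 7.24. Fap, a surface protease of activated fibroblasts, differed by 0.019. After the correction for length 1 of these 6 genes, Pdgfrb, was higher in Arg1 ko (0.061) and the median was -0.029. Without wild type 1 and 2 the median was 0.039, but single genes lay far to both sides. Pdgfra was then lower in Arg1 ko (-0.25), with no overlap between the groups and an unadjusted p of 0.0294 (limma adjusted p = 0.374). Pi16 was higher (0.25, limma adjusted p = 0.447).

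The small leucine-rich proteoglycans bind collagen fibrils and set their diameter and spacing. Of 7, 6 were higher in Arg1 ko, with a median of 0.15. Bgn (ENSMUSG00000031375, chromosome X, 73483602 to 73495933, GRCm38) encodes biglycan. Its values were 11.51, 11.34, 11.54 and 11.62 in wild type and 11.64, 11.75, 11.70 and 11.69 in Arg1 ko. All ko libraries lay above all wild-type libraries, by a gap of 0.026 between the nearest. Wild type averaged 11.50 ± 0.12 (SD, n = 4) and Arg1 ko 11.70 ± 0.043 (SD, n = 4), and the difference was 0.20 (SE 0.089) with a limma adjusted p of 0.522. Lum, encoding lumican, had 9.99, 9.34, 9.97 and 9.65 in wild type and 10.10, 9.85, 10.11 and 10.14 in Arg1 ko. Only Arg1 ko 2 lay inside the wild-type range, and the difference was 0.31 (SE 0.15, limma adjusted p = 0.522). Prelp, which anchors basement membranes to connective tissue, had 10.02, 10.37, 10.64 and 10.25 against 10.68, 10.64, 10.46 and 10.64. The library labelled wild type 3 lay among the ko values, and the difference was 0.28 (SE 0.13).

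Decorin was the 1 member of this class with a negative difference. Dcn, the member of this class with the highest level per length, had 13.14, 13.10, 13.22 and 13.49 in wild type and 13.20, 13.09, 13.06 and 13.16 in Arg1 ko. Wild type 4 was its highest library, and the difference was -0.11 (SE 0.11). It stayed negative in all 17 alternatives (-0.23 to -0.0059), while that of Bgn stayed positive (0.12 to 0.24), and neither passed the test in any. Some alternatives change only the filter or the variance model, and these leave the difference of a gene as it is. Leaving out libraries cannot change the sign for Bgn, whose groups did not overlap. Whether the differences of Dcn and Bgn differ from each other was not tested. Aspn, encoding asporin (0.15), Fmod (0.12) and Ogn, encoding osteoglycin (0.049), were lower in wild type 1 and 2 than in the other wild-type libraries. All 3 were lower in Arg1 ko without those libraries, with differences of -0.14, -0.12 and -0.26.

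Elastic fibres consist of an elastin core on a scaffold of fibrillin microfibrils, joined by fibulins and microfibril-associated proteins. Of 11 such genes 10 were higher in Arg1 ko, with a median of 0.15. Fbn1 (ENSMUSG00000027204, chromosome 2, 125300594 to 125507993, minus strand) encodes fibrillin 1. It had 8.998, 9.28, 9.99 and 9.79 in wild type and 10.04, 9.83, 9.92 and 10.07 in Arg1 ko. Wild type 1 and 2 lay far below the rest, and the value of the library labelled wild type 3 fell between those of the ko libraries. Wild type averaged 9.51 ± 0.46 (SD, n = 4) and Arg1 ko 9.96 ± 0.11 (SD, n = 4), and the difference was 0.45 (SE 0.20, limma adjusted p = 0.522), the largest positive one of the 41. It was 0.31 after the correction for length and 0.073 without wild type 1 and 2. Opposite-strand exons of the predicted gene Gm9913 lie over 20.1% of the Fbn1 exons, but that gene had a mean rlog of only 0.23.

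Emilin1, a glycoprotein at the surface of elastic fibres, had 9.92, 10.18, 10.29 and 10.07 in wild type and 10.32, 10.45, 10.30 and 10.26 in Arg1 ko, a difference of 0.22 (SE 0.10). The library labelled wild type 3 alone reached into the ko range. Mfap4, which organises elastic fibres, had 8.64, 8.51, 8.73 and 8.54 against 8.68, 8.97, 8.84 and 8.71, a difference of 0.20 (SE 0.11). Efemp1, encoding fibulin 3 and the highest of this class per length, had 9.62, 9.35, 9.49 and 9.47 against 9.72, 9.46, 9.56 and 9.78, a difference of 0.15 (SE 0.11), with overlapping groups. Fbln1 (0.27) and Fbln2 (0.21), which bind fibronectin and basement membrane proteins, were higher by more than the fibulins needed for elastin assembly, Fbln5 (0.081) and Efemp2 (0.083). Differences between these 4 genes were not tested. Eln, elastin itself, differed by 0.11. Mfap2 (-0.014) and Mfap5 (0.00014), the microfibril-associated glycoproteins, were near 0.

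All 11 genes were higher in Arg1 ko after the correction for length (median 0.15) and all 11 without wild type 1 and 2 (median 0.15), while 2 and 1 of them had an unadjusted p under 0.05, against 10.1% and 13.1% of all genes. Several lay near 0: Fbln5 (0.0080, SE 0.092), Mfap5 (0.011, SE 0.15) and Eln (0.018, SE 0.099) after the correction. Without wild type 1 and 2 so did Fbln2 (0.026, SE 0.10). With quantile normalization, and without the library labelled wild type 3, 9 of the 11 were higher. These fits share the ko libraries with the first, so they are no independent support.

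The adhesive and matricellular proteins tie cells to the matrix or regulate that contact. Of 10, 8 were higher in Arg1 ko, with a median of 0.13. Postn (ENSMUSG00000027750, chromosome 3, 54361109 to 54391037) encodes periostin, which is laid down by activated fibroblasts. It had 11.97, 11.92, 12.18 and 12.23 in wild type and 12.47, 12.24, 12.33 and 12.45 in Arg1 ko. The groups did not overlap, but Arg1 ko 2 and wild type 4 were only 0.0074 apart. Wild type averaged 12.08 ± 0.15 (SD, n = 4) and Arg1 ko 12.37 ± 0.11 (SD, n = 4), and the difference was 0.30 (SE 0.11, limma adjusted p = 0.522). Sparc (ENSMUSG00000018593, chromosome 11, 55394500 to 55423183, minus strand) encodes a collagen-binding protein that aids fibril assembly. It had 12.28, 12.21, 12.18 and 12.12 in wild type and 12.42, 12.29, 12.45 and 12.50 in Arg1 ko, with a gap of 0.0075 between the groups. Wild type averaged 12.20 ± 0.070 (SD, n = 4) and Arg1 ko 12.41 ± 0.087 (SD, n = 4), and the difference was 0.22 (SE 0.088, limma adjusted p = 0.522).

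Sparc had similar values in all wild-type libraries, unlike some long genes such as Fbn1 and Nid1. Its difference was 0.22 after the correction for length and 0.27 without wild type 1 and 2. For Postn these were 0.20 and 0.17, and for Bgn 0.14 and 0.12. Exact permutation of the libraries (70 assignments, two-sided) gave p = 0.0286 for each of Bgn, Postn and Sparc. This is the smallest value the design allows. Groups that do not overlap give it by construction, so for these genes, picked for that, it adds nothing to the separation itself. The gaps are small: after library medians were aligned, none of the 41 genes had groups apart.

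Mgp (ENSMUSG00000030218, chromosome 6, 136872435 to 136875823, minus strand) encodes matrix Gla protein, an inhibitor of calcification made by vascular and stromal cells. It had 11.71, 11.54, 10.79 and 11.27 in wild type and 10.73, 10.90, 10.88 and 10.79 in Arg1 ko. The 4 ko values were close together and below wild type 1, 2 and 4, while the library labelled wild type 3 fell within them. Wild type averaged 11.33 ± 0.40 (SD, n = 4) and Arg1 ko 10.83 ± 0.081 (SD, n = 4), and the difference was -0.50 (SE 0.18, limma adjusted p = 0.522; range over the alternatives 0.0286 to 0.819). Exact permutation gave p = 0.0857 (two-sided). With the library labelled wild type 3 left out, Mgp passed, with a difference of -0.68 (limma adjusted p = 0.0286), in a fit that called 6.14% of all genes, 3.28% on the lower side. No other of the 41 passed there. Leaving out the wild-type library nearest to the ko values enlarges the difference by construction. With 1.19 kb Mgp is the shortest of the 41, and its difference was -0.36 after the correction for length and -0.21 without wild type 1 and 2. Its order within wild type was also that of 5 red blood cell markers, with summed levels of 14.74, 14.31, 12.60 and 13.64 against 12.58 to 13.33 over the ko libraries. These markers are short too, with a median of 0.77 kb. The 1824 tested genes of up to 1.5 kb had the same order, with median deviations of 0.36, 0.18, -0.15 and -0.085 in wild type 1 to 4. The part of red blood cells in the result was not tested.

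**Figure D3:**
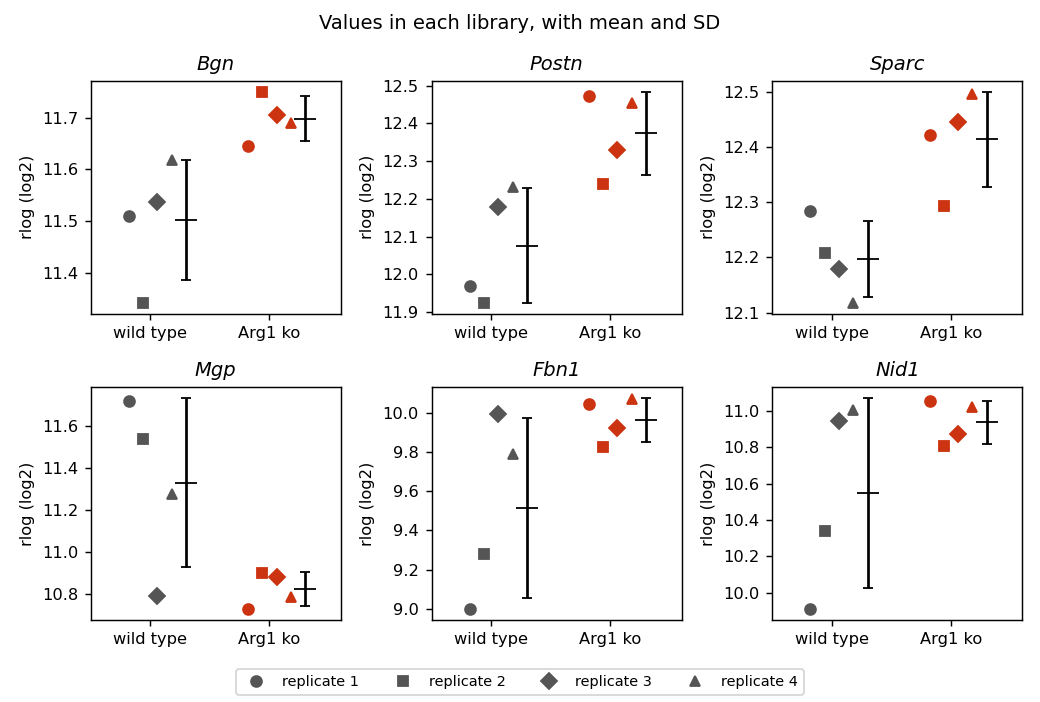
Rlog values (log2, y axes that do not start at 0) of Bgn, Postn, Sparc, Mgp, Fbn1 and Nid1 in each library, with symbols for the replicates 1 to 4 and, beside them, the mean with SD (n = 4). Bgn, Postn and Sparc separate the groups by small gaps, Mgp is lower in all ko libraries than in wild type 1, 2 and 4, and Fbn1 and Nid1 are low in wild type 1 and 2.

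Dpt, encoding dermatopontin, a small protein that binds decorin and collagen, had the highest level per length of the 41. Its values were 11.82, 11.66, 11.48 and 11.45 in wild type and 11.70, 11.59, 11.72 and 11.61 in Arg1 ko, a difference of 0.048 (SE 0.10). It is 1.72 kb long, and after the correction for length its groups lay apart with a difference of 0.17 (limma adjusted p = 0.492). Fn1, the fibronectin that cells assemble into fibrils, had 11.14, 11.81, 12.22 and 12.55 in wild type and 12.24, 12.06, 12.11 and 12.32 in Arg1 ko. The difference of 0.25 (SE 0.25) rested on wild type 1 and was -0.012 without it. Thbs1 (0.12), a thrombospondin that activates latent TGF-beta, and Tnc (0.018), the tenascin of wound matrix, were lower in Arg1 ko without wild type 1 and 2 (-0.26 and -0.27). Thbs2 differed by 0.14, Vcan, encoding the large proteoglycan versican, by 0.15, and Cthrc1 by -0.058.

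Basement membranes are sheets of laminin and type IV collagen networks linked by nidogens and perlecan. All 7 genes of this class were higher in Arg1 ko, with a median of 0.28, the highest of the 5 classes, but none had an unadjusted p under 0.05 and in none were the groups apart. It is also the class with the longest genes, with a median of 9.92 kb. Nid1 (ENSMUSG00000005397, chromosome 13, 13437551 to 13512269), encoding nidogen 1, had 9.91, 10.34, 10.95 and 11.00 in wild type and 11.05, 10.80, 10.87 and 11.02 in Arg1 ko. Wild type 1 and 2 were low, and the other wild-type libraries lay among the ko values. Wild type averaged 10.55 ± 0.52 (SD, n = 4) and Arg1 ko 10.94 ± 0.12 (SD, n = 4), and the difference was 0.39 (SE 0.22, limma adjusted p = 0.531). Hspg2, encoding perlecan, was low in the same libraries, with 10.43, 10.79, 11.52 and 11.38 against 11.45, 11.29, 11.25 and 11.48, a difference of 0.33 (SE 0.21).

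Laminin chains were likewise lowest in wild type 1. Lamc1, the gamma chain shared by most laminins and the highest of this class per length, had 10.31, 10.69, 11.21 and 11.26 in wild type and 11.25, 11.03, 11.09 and 11.22 in Arg1 ko, a difference of 0.28 (SE 0.19). Lama4, the alpha chain of vessel laminin, had 9.57, 9.71, 10.20 and 9.89 against 10.28, 10.07, 10.03 and 10.17, a difference of 0.30 (SE 0.14). It had the smallest unadjusted p of the class, 0.0519 (limma adjusted p = 0.522). Lama2 (0.25), the alpha chain around muscle cells, Lamb1 (0.10) and Nid2 (0.24) made up the rest. Exons of Rtraf, a gene with a mean rlog of 11.66, lie on the opposite strand over 8.45% of the Nid2 exons, and since the strand setting of the counting is not given, the value of Nid2 is uncertain. The same limit holds for Mfap4, with Mapk7 (mean rlog 8.48) opposite 4.63% of its exons. It also holds for Efemp2, with Mus81 (7.47) opposite 4.57%.

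Without wild type 1 and 2, Lama4 alone of these 7 was higher in Arg1 ko (0.099), and the median of the class was -0.084. After the correction for length 6 of 7 were higher, with a median of 0.18. Wild type 1 and 2 had median deviations of -0.69 and -0.32 over this class. The other wild-type medians were 0.21 and 0.25, and those of the ko libraries 0.045 to 0.25.

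**Figure D4:**
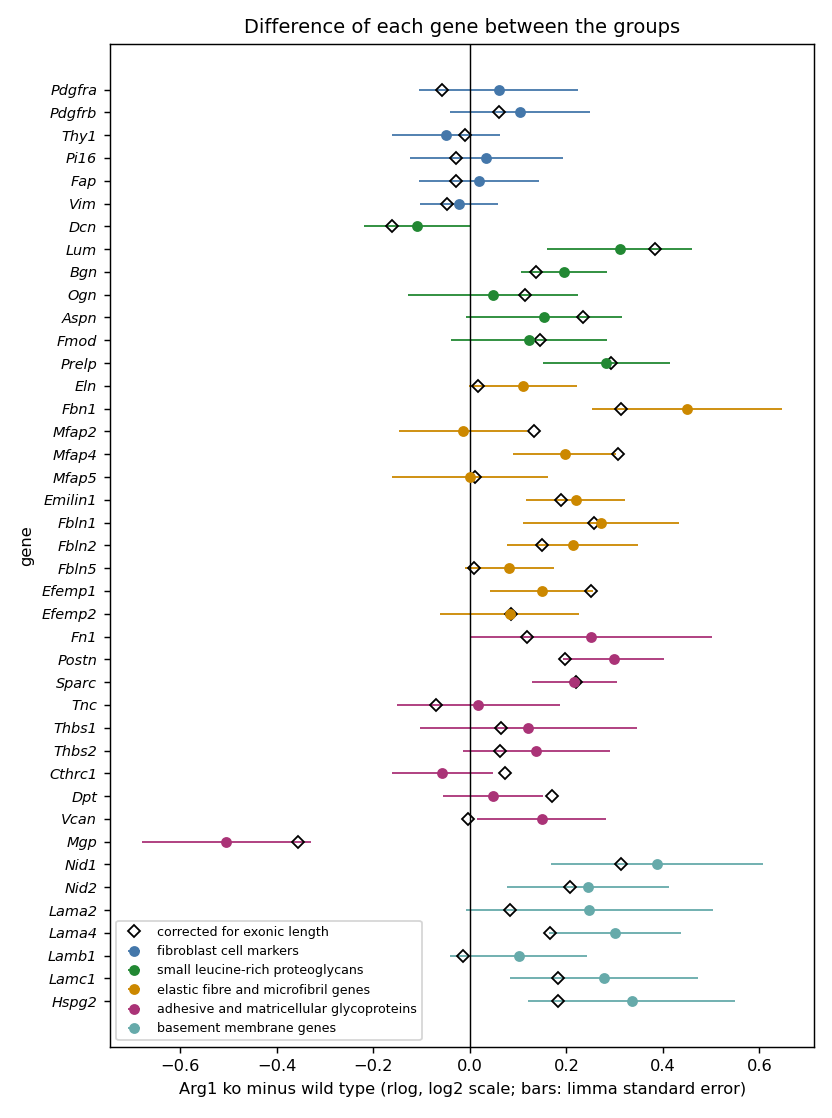
Difference of each of the 41 genes between the groups (Arg1 ko minus wild type, rlog, x axis), with filled points and limma standard errors coloured by role class, and open diamonds for the difference after correction for exonic length. Mgp lies lowest at -0.50 and Fbn1 highest at 0.45, and the basement membrane genes move toward 0 with the correction.

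Related genes of the matrix were read from lists drawn up by name, and none passed the test over all genes (limma). Of 20 collagen chains 18 were higher in Arg1 ko with a median of 0.43, 11 of them at an unadjusted p under 0.05, against 9.1% of all tested genes. In 7 the groups were apart, all higher in Arg1 ko, against 4.03% of all tested genes in either direction and 2.36% on the higher side. Those of smallest p were Col1a1 (0.83), Col1a2 (0.57) and Col3a1 (0.70). The median of the 20 was 0.32 after the correction for length, with 13 at an unadjusted p under 0.05 (10.1% of all genes), and 0.15 without wild type 1 and 2, with 7 (13.1%). Once the library labelled wild type 3 was left out, 10 of the 20 passed the test, in the fit that called 6.14% of all genes. For Col1a1, Col1a2 and Col3a1 it held the top wild-type value, still below every ko value (Col1a1 11.31, ko 11.50 to 11.76). Dropping it must therefore widen their differences, so those passes are no independent support. Of 61 tested other non-collagen matrix genes 36 were higher and 25 lower, with a median of 0.089, which was -0.020 without wild type 1. The smallest p belonged to Igfbp6 (-0.45), which binds insulin-like growth factors, Svep1 (0.52), a large adhesion protein, and Matn2 (0.31), a matrilin. An unadjusted p under 0.05 was reached by 8 of 61, 5 higher and 3 lower, against 9.1% of all tested genes.

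Of 24 matrix receptors 17 were higher, with a median of 0.11 and 1 at an unadjusted p under 0.05 (9.1% of all tested genes), the hyaluronan receptor Cd44 (0.30). The collagen receptor Ddr2 (0.36) and the syndecan Sdc3 (0.18) followed. Of 19 tested genes of colon fibroblast subsets 11 were higher, with a median of 0.048. Col14a1, a fibril-associated collagen that the collagen list also holds, had 8.88, 8.74, 9.38 and 8.79 in wild type and 9.62, 9.16, 9.59 and 9.68 in Arg1 ko, a difference of 0.57 (SE 0.17, limma adjusted p = 0.522). Agt, encoding angiotensinogen, differed by -0.25, and Ackr4, a chemokine scavenging receptor of submucosal fibroblasts, by 0.19.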

How the data were processed

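RNA of 8 mice, 4 in each group, was made into libraries with a stranded mRNA kit, per the labels' protocols. The authors deposited 1 table of regularised log2 values (rlog), in which the logarithm of scaled counts is shrunk toward the mean of the gene, so that differences of weakly expressed genes are understated. The submitters' processing notes name BWA (0.7.14-r1136), STAR (2.5.2b), Subread (1.5.3), featureCounts, DESeq2 (1.16.1) and the build GRCm38. Their options, the annotation and the strand setting are not stated there. As the table holds no counts, depth is unknown and counting error has no interval.

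Gene names, coordinates and exonic lengths (union of exons) were taken from GENCODE's annotation of GRCm38, which named 53274 of 53465 IDs. Genes with a mean of 3 or more were fitted together in limma (3.58.1, R 4.3.3) with a genotype term and a prior variance that followed the mean, and p-values were adjusted by Benjamini-Hochberg at 0.05. The code was tested on simulated data. The members and lists were chosen with earlier results of these data known. Every member is named, and values per library are given for the 3 of smallest p and the one of highest level per length in each class, and 3 genes are named from each other list. Fn1 and the library values of Col14a1 were added after their values were seen. Omd and Il6, on the other lists, were under the filter. A planned comparison of protein sequences was not run.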

Additional observations from a re-analysis of the deposited data

Results flagged for a closer look

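In each group of 4 libraries, the highest and lowest values of the 41 genes and of Arg1 were compared with the nearest other value. In 6 of the 84 groups 1 library stood far from the other 3, where chance gives about 1 in 20. For Arg1 this was the library labelled wild type 3, at 5.02 against 5.57 to 5.59 in the rest of its group. Fap was 7.09 in wild type 1 and 6.83 to 6.87 in the others. In Arg1 ko 2, Lum was 9.85 against 10.10 to 10.14, Mfap5 was 7.27 against 7.63 to 7.66, and Fbln1 was 10.43 against 10.20 to 10.23 in the other ko libraries. Vim was 12.01 in Arg1 ko 4 and 12.11 to 12.12 in the others.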

How the results depend on the processing

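No paired analysis was possible because the labels of the groups share no replicate numbers. The sign of the difference was the same in all 17 alternatives for 16 of the 41 genes (Bgn, Dcn, Efemp1, Eln, Emilin1, Fbln1, Fbln2, Fbln5, Fbn1, Lama4, Lum, Mfap4, Mgp, Postn, Prelp, Sparc) and changed in at least 1 for 25. In the alternatives that change only the filter or the variance model, a gene's difference cannot change, so its sign there adds nothing. For Bgn, Postn and Sparc, whose groups did not overlap, leaving out libraries cannot change the sign either. Their groups also stay apart in such fits, so the members with groups apart cannot fall below 3 there. Over the fits that leave out 1 library each, the genes called ranged from 0 to 1005 and the members called from 0 to 1 (both upper values without the library labelled wild type 3). Members at an unadjusted p under 0.05 ranged from 1 to 14 (28.1% of all genes where it was 14), members with groups apart from 3 to 9 (25.6% where it was 9), and the median of the other non-collagen matrix genes from -0.020 (without wild type 1) to 0.16. Members at an unadjusted p under 0.05 numbered 2 with aligned medians (9.49% of all genes), where 0 had groups apart (3.8%). They numbered 7 with quantile normalization (9.22%), 7 with the length correction (10.1%) and 8 with length and GC (10.2%). With aligned medians the genes at such a p were 570 higher and 984 lower, against 774 and 716 in the values as deposited. Without wild type 1 and 2 that count was 7 (13.1%), and 12 had groups apart, against 22.7% of all genes. There the median of the longer members was -0.060, of the collagen chains 0.15 and of the other matrix genes -0.10, with 21 of these higher. At an adjusted p of 0.1 no gene was called. With a single prior variance, robust moderation, no filter or a filter at 5, counts and medians stayed within 1.5 times or 1 SD. The cause of these changes was not tested.

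Leaving out single libraries moved the difference from -0.012 to 0.46 for Fn1, from -0.14 to 0.25 for Thbs1, from -0.13 to 0.14 for Tnc, from -0.099 to 0.073 for Mfap2, from -0.057 to 0.17 for Pdgfra, from -0.11 to 0.029 for Thy1, from -0.12 to 0.16 for Ogn, from -0.023 to 0.21 for Lamb1, from -0.032 to 0.092 for Fap, from -0.091 to 0.13 for Mfap5, from -0.0024 to 0.12 for Dpt, from -0.12 to 0.11 for Pi16, from -0.026 to 0.18 for Efemp2 and from -0.046 to 0.0027 for Vim. With aligned medians the sign changed for Fap (-0.010), Tnc (-0.012) and Mfap5 (-0.029), and with quantile normalization for Vim (0.040), Fap (-0.050), Mfap5 (-0.046) and Pi16 (-0.031). With the length correction it changed for Fap (-0.029), Tnc (-0.070), Mfap2 (0.13), Pdgfra (-0.057), Vcan (-0.0044), Lamb1 (-0.015), Cthrc1 (0.073) and Pi16 (-0.029), and with length and GC for Fap (-0.044), Tnc (-0.065), Mfap2 (0.14), Pdgfra (-0.056), Vcan (-0.0028), Lamb1 (-0.0090), Cthrc1 (0.068) and Pi16 (-0.021). Without wild type 1 and 2 it changed for Fn1 (-0.20), Fmod (-0.12), Lamc1 (-0.090), Vim (0.0055), Thbs1 (-0.26), Tnc (-0.27), Hspg2 (-0.084), Mfap2 (0.096), Pdgfra (-0.25), Lama2 (-0.26), Nid2 (-0.043), Thy1 (0.11), Nid1 (-0.037), Aspn (-0.14), Ogn (-0.26), Lamb1 (-0.14), Cthrc1 (0.041), Thbs2 (-0.083) and Pdgfrb (-0.13). Depth is unknown.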
